A study of Mus musculus with 59 samples.

Results

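Dnajb1, Dnaja4 and Hspe1 encode 3 heat shock chaperone proteins, the first 2 of the cytosol and the third of the mitochondrial matrix. Their transcripts were taken by gene symbol from a table of 4484 genes measured in medial prefrontal cortex, and all 3 passed the filter on low reads that 4273 genes passed. The cortex came from adult wild-type C57BL/6J mice, an inbred strain, and was homogenized whole. Animals were killed every 4 h over 24 h. The 59 libraries form 12 groups of zeitgeber time (ZT2, ZT6, ZT10, ZT14, ZT18 and ZT22) and sex, with 5 libraries a group except for ZT10 females with 4. The labels name no mutation and no treatment in any group. ZT0 is lights on by convention, and ZT14, ZT18 and ZT22 are treated as dark times although no label states the light schedule. The question was whether these transcripts follow the time of day, and whether they do so in both sexes.

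Heat shock proteins of the HSP70 class bind unfolded stretches of other proteins and use ATP to help them fold. J-domain proteins of the HSP40 class, to which Dnajb1 and Dnaja4 belong, hand clients to HSP70 and stimulate its ATPase. Hspe1 (HSP10) is the lid of the mitochondrial chaperonin and works with the barrel-forming Hspd1 (HSP60). The heat shock factor Hsf1 drives many of these genes by binding inverted GAA units upstream of their start sites, and neurons express the constitutive HSP70 gene Hspa8 at high levels.

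The start regions of the 3 genes were searched for such units, in RefSeq windows of GRCm38.p6 that run from 250 bases before to 50 bases after each start. Both strands were searched for TTCNNGAA and GAANNTTC, 2 palindromes that overlap each other in longer arrays. Of 32851 windows genome-wide, 8.52% hold the first, 7.86% the second and 15.1% at least one of them. The sequences below are shown because they hold every match found in the 3 genes, and because the gene with the clearest change over the day, Dnajb1, has none in its windows. Capitals mark the TTC and GAA bases of a match.
Hspe1, chr1:55088053-55088082, plus strand: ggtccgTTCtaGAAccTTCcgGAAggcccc
Dnaja4 upstream, chr9:54699458-54699487, plus strand: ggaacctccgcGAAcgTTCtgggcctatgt
Dnaja4 downstream, chr9:54699496-54699525, plus strand: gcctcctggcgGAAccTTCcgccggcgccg
Dnajb1, chr8:83608075-83608174, plus strand: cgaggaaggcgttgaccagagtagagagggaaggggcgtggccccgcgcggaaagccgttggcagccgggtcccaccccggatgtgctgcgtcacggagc

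The Hspe1 sequence holds 4 alternating units, with TTCNNGAA beginning 89 and 79 bases before the start and GAANNTTC beginning 84 bases before it. The longer form in which the palindromes TTCNNGAA and GAANNTTC share their GAA or TTC, searched on both strands, is found in 0.603% of all windows and occurs there in 2 overlapping copies. The same bases lie in a 5′ UTR exon of an annotated transcript of Hspd1, which is read from the opposite strand, and fall within a window of an Hspd1 start. In Dnaja4, GAANNTTC begins 90 and 52 bases before the second of its 2 RefSeq starts. Both stretches are in an intron of a longer Dnaja4 transcript, and the downstream one runs into the first exon of a shorter one. The windows of both Dnajb1 starts hold neither palindrome, and the 100 bases shown end just before the first start. Among the tested chaperone genes outside the endoplasmic reticulum, 25 could be matched to RefSeq windows, and 8 of their 32 windows (25%) held a match. The 8 include windows of Hspe1 and Hspd1 that hold the same bases, and the share was not tested against that of all windows. A match describes letters in a window, and the absence of one says nothing about which factors bind.

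Dnajb1 (ENSMUSG00000005483) lies on chromosome 8 from 83608193 to 83612653 in GRCm38 and shares no exonic base with another gene. Dnaja4 (ENSMUSG00000032285), on chromosome 9 from 54698873 to 54716315, has 1581 of its 3589 exonic bases in common with Wdr61 on the other strand. Hspe1 (ENSMUSG00000073676), on chromosome 1 from 55088132 to 55091307, shares a short stretch of its 1474 exonic bases with Hspd1 on the other strand. A further annotated gene matches 515 bases of Hspe1 at 95% identity or more and was not analysed here. The strand setting of the counting is not given in the sources used here, so reads in the shared bases of Dnaja4 and Hspe1 cannot be assigned with certainty. The median library held 469 reads of Dnajb1, 443 of Dnaja4 and 605 of Hspe1, and no library held fewer than 229 of any. At those medians counting alone gives a standard deviation of 0.07, 0.07 and 0.06 on the log2 scale. The spread between libraries of the same group was larger, with SDs of 0.18 for Dnajb1, 0.15 for Dnaja4 and 0.30 for Hspe1. Per kilobase of exon, Hspe1 was the highest of the 3 with a median of 1270 scaled reads, against 453 for Dnajb1 and 399 for Dnaja4. Their partners spanned a wider range on that scale, from 10900 for Hspa8 through 4920 for Hsp90aa1 and 990 for Hspd1 down to 25.2 for the stress-inducible HSP70 gene Hspa1a.

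Library depth was 6317420 to 13325019 reads in the table, and 6 noncoding genes took from 61.4% to 91.2% of them. The titles number the libraries serially, and the 11 libraries numbered 49 to 60 were set off from the rest along the leading principal component (24.5% of variance). They hold 1 library of each group apart from ZT10 females. Against the other 48, adjusted for group, they were lower in Dnajb1 by a log2 difference of -0.23 ± 0.05 (SE) and in Hspe1 by -0.42 ± 0.08, while Dnaja4 differed by -0.03 ± 0.05. The adjusted p-values (limma, Benjamini-Hochberg) were 0.000182, 2.94e-05 and 0.676, where 55.3% of all genes tested passed the threshold and their median was -0.05. The titles also give an animal number, and 44 of the 59 libraries share theirs with 1 other library of the same group. No source says whether these are the same animal, so p-values measure the spread between libraries, which may be partly technical.

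Dnajb1, the J-domain partner of cytosolic HSP70, was lower in the middle and late light phase and higher through the dark phase. Its log2 level (scaled reads plus 1) at ZT6 ran from 9.90 through a median of 10.33 to 10.91, with a mean of 10.38 ± 0.25 (SD, 10 libraries). At ZT10 it ran from 10.20 through 10.42 to 10.55, with a mean of 10.40 ± 0.11 over 9 libraries. At ZT14 the range was 10.46 to 10.82 around a median of 10.64, and the mean was 10.62 ± 0.12. All 10 ZT14 libraries lay above the ZT10 median. At ZT18 the lowest library had 10.35, the median was 10.69 and the highest 10.88, with a mean of 10.65 ± 0.17. At ZT22 the values were 10.32, 10.66 and 10.80, with a mean of 10.59 ± 0.19. At ZT2 they were 10.35, 10.54 and 10.91, with a mean of 10.57 ± 0.17. Ordered by mean, the times ran ZT6, ZT10, ZT2, ZT22, ZT14 and ZT18. The gap of 0.17 between ZT10 and ZT2 was the only one between neighbours that exceeded the SD of both, and the other 4 gaps lay between 0.02 and 0.04. In mean, the lowest 2 times thus lay apart from the other 4, a split read from the ordered means and not tested.

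**Figure D1:**
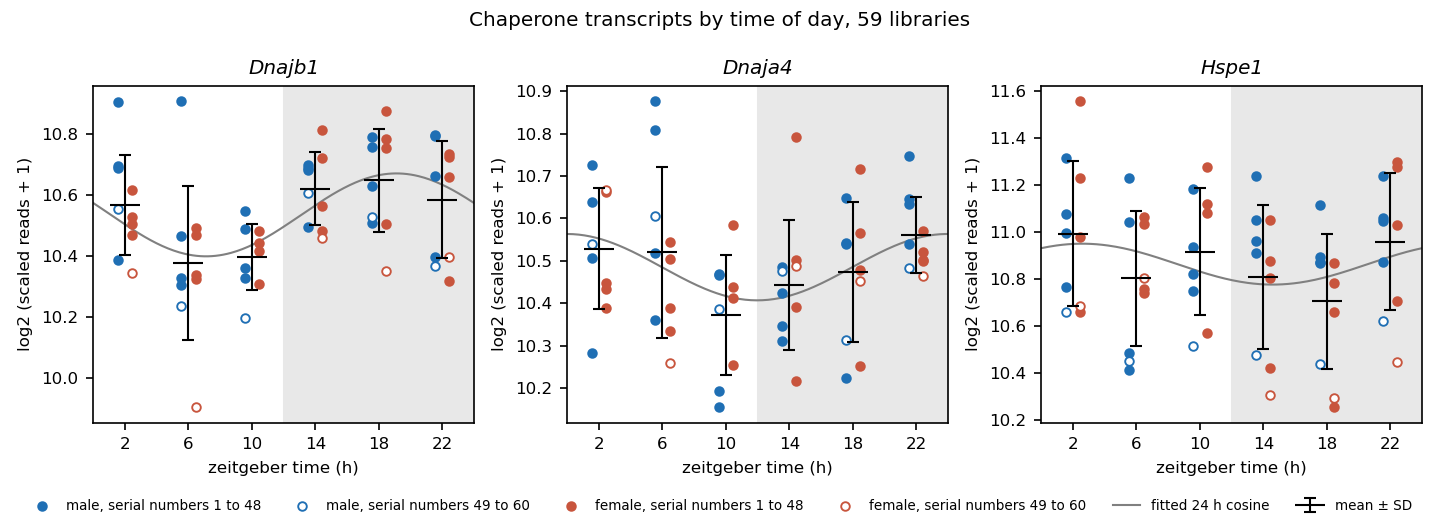
Log2 level of Dnajb1, Dnaja4 and Hspe1 (y axes, log2 of scaled reads plus 1, scales differ) against zeitgeber time (x axes, hours, with ZT12 to ZT24 shaded) in 59 libraries. Points are libraries by sex, open where numbered 49 to 60, black bars are means ± SD of each time and grey lines the fitted 24 h cosine. Dnajb1 is lowest at ZT6 (mean 10.38) and highest at ZT18 (10.65), and the open points lie low in Dnajb1 and Hspe1.

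All 10 ZT18 libraries exceeded the ZT6 median of Dnajb1, yet none exceeded the highest ZT6 library, which was male replicate 2 at 10.91. The difference of 0.27 between those means is 1.21-fold. The groups overlap mainly through 1 library on each side: 9 of 10 ZT6 libraries were at 10.49 or below, and 9 of 10 ZT18 libraries were at 10.50 or above. Between ZT18 and ZT6 libraries of the same sex and the same run of 12 serial numbers, 9 of 10 differences were above 0. ZT18 and ZT6 have the highest and lowest means in these same libraries, so this count is no separate support.

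The 24 h cosine fitted to Dnajb1 had an amplitude, from mean to peak, of 0.14 ± 0.03 on the log2 scale and a peak at 19.1 ± 0.94 h. It passed the threshold (limma, adjusted p = 0.0393), as 1.9% of all genes tested did, and was the 78th of 81 genes called by p. Neither of the other 2 genes passed. Dnajb1 was not called by the test of the 6 times without a cosine, which called 1.05% of genes (adjusted p = 0.13, range of time means 0.27). The dark phase minus the light phase gave 0.17 ± 0.05 (95% interval 0.07 to 0.27), with an adjusted p of 0.0906, where 0.702% of genes were called and 0.538% called higher. ZT18 minus ZT6 gave 0.27 ± 0.08 (interval 0.10 to 0.44) with an adjusted p of 0.15, and 0.796% of genes were called in either direction. ZT22 minus ZT10 was 0.19 ± 0.09 (interval 0.01 to 0.36, adjusted p = 0.759) and ZT14 minus ZT2 was 0.05 ± 0.08 (interval -0.12 to 0.22, adjusted p = 0.965). Of these 3 pairs of times 12 h apart, the early ones differed least in mean, and the differences between the pairs were not tested.

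The Dnajb1 call is close to the threshold and rests on many libraries. Leaving out 1 library at a time ended it in 21 of 59 cases, with adjusted p from 0.00779 to 0.0934 and amplitudes from 0.12 to 0.15. The 21 were 6 libraries of ZT6, 4 of ZT10, 5 of ZT18 and 6 of ZT22, and none of ZT2 or ZT14. The lowest p came without ZT6 male replicate 2, and then the dark-light difference (0.19, adjusted p = 0.024), the 6 times (0.33, adjusted p = 0.0311) and ZT18 minus ZT6 (0.33, adjusted p = 0.042) also passed. The highest came without ZT6 female replicate 5, the library with the lowest Dnajb1. Without the libraries numbered 49 to 60 the amplitude was 0.13 (adjusted p = 0.0646). With libraries of 1 animal number averaged it was 0.13 (adjusted p = 0.137), and with library totals as the scale 0.16 (adjusted p = 1). The call held with the noncoding share as a covariate (adjusted p = 0.0164), with limma voom (0.0456) and with totals that leave out the noncoding genes (0.025). With the run of 12 serial numbers as a term the adjusted p was 0.00314 (amplitude 0.14), and then the 6 times (adjusted p = 0.00958), dark minus light (0.00754) and ZT18 minus ZT6 (0.025) passed too. That term also raised the share of all genes called for the rhythm, from 1.9% to 2.67%. With that term and without the libraries numbered 49 to 60 the rhythm still passed (adjusted p = 0.0411), as it did for 1.41% of all genes. The 6 times (0.159), dark minus light (0.123) and ZT18 minus ZT6 (0.224) then did not pass. The 5 runs of 12 serial numbers each gave a peak between 18.8 and 20.4 h when fitted alone, with amplitudes from 0.06 to 0.21. The dark-light difference of Dnajb1 was above 0 in each of these runs (0.08, 0.18, 0.25, 0.17 and 0.20), so the direction was found within every run while the size varied.

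**Figure D2:**
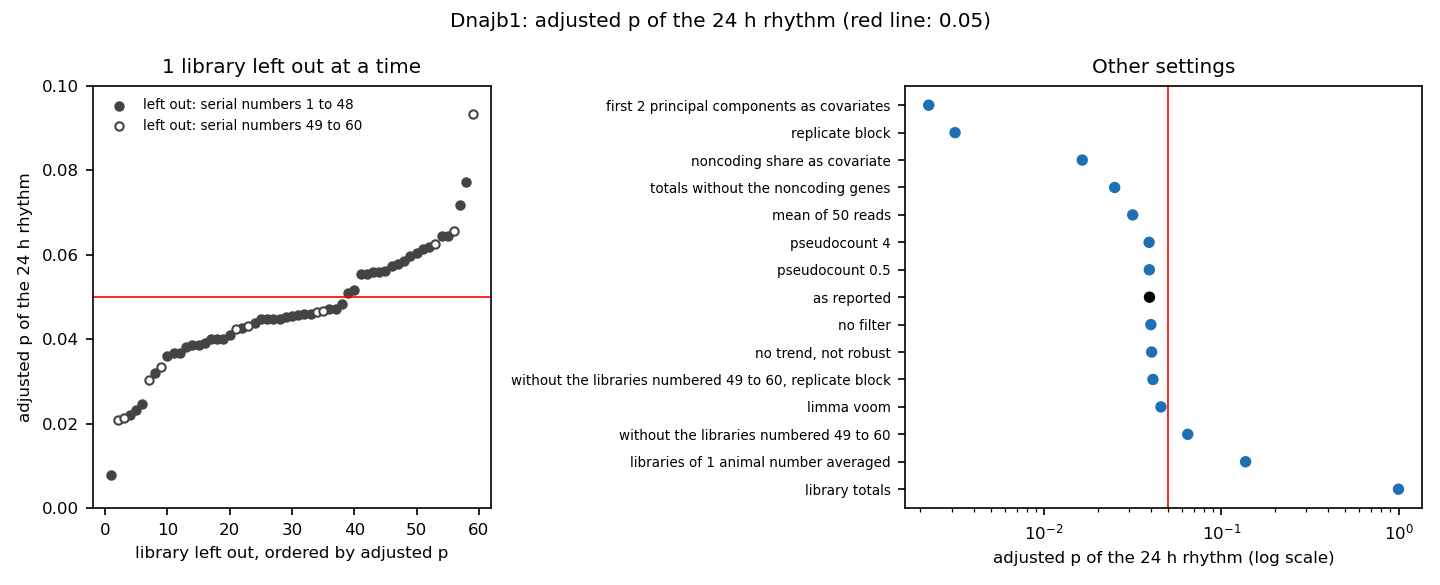
Adjusted p of the Dnajb1 24 h rhythm when 1 library is left out (left, y axis linear, libraries ordered by p on the x axis, open where numbered 49 to 60) and under other settings (right, x axis on a log scale, the reported setting in black). The red line is 0.05, which 21 of 59 left-out libraries exceed, as do library totals, averaging by animal number and leaving out numbers 49 to 60.

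Dnajb1 had its 2 lowest means at ZT6 and ZT10 in each sex. Female means were 10.31 ± 0.24 at ZT6 and 10.65 ± 0.22 at ZT18, and male means 10.45 ± 0.27 and 10.64 ± 0.13 (SD, 5 libraries each). Fitted alone, females gave 0.16 ± 0.05 and a peak at 18.3 h (adjusted p = 0.344) and males 0.12 ± 0.05 with a peak at 20.3 h (adjusted p = 0.705). Neither passed, where 0.328% of genes passed in females and 0.164% in males. The test of a difference in rhythm between the sexes gave an adjusted p of 0.797 for Dnajb1. It was 0.741 for both Dnaja4 and Hspe1, and of 4273 genes 0 were called, while 180 (4.21%) had an unadjusted p under 0.05. In level, males minus females differed by 0.06 (95% interval -0.04 to 0.15) for Dnajb1, 0.03 (-0.06 to 0.11) for Dnaja4 and 0.03 (-0.13 to 0.18) for Hspe1, each with an adjusted p of 0.999, and 0.0234% of genes were called. Sex differences of up to 0.18 on the log2 scale thus lie within these intervals.

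Dnaja4, the other cytosolic J-domain gene, was lowest at ZT10 and highest at ZT22. At ZT10 its log2 level ran from 10.16 through a median of 10.41 to 10.58, with a mean of 10.37 ± 0.14. At ZT22 it ran from 10.47 through 10.53 to 10.75, with a mean of 10.56 ± 0.09, the tightest time. All 10 ZT22 libraries lay above the ZT10 median and 3 above the highest ZT10 library. The means at the other times were 10.44 ± 0.15 at ZT14, 10.47 ± 0.17 at ZT18, 10.52 ± 0.20 at ZT6 and 10.53 ± 0.14 at ZT2, in rising order. No gap between neighbouring times exceeded the SD of either, the widest being 0.07 from ZT10 to ZT14.

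The fitted Dnaja4 rhythm had an amplitude of 0.08 ± 0.03 and a peak at 24.0 ± 1.5 h, an unadjusted p of 0.04 (11.4% of all genes were under 0.05) and an adjusted p of 0.385. ZT22 minus ZT10 was 0.18 ± 0.07 (95% interval 0.03 to 0.33, adjusted p = 0.678), where 0.211% of genes were called. It was above 0 in 8 of 9 same-run same-sex comparisons and in all 5 run averages, which ran from 0.10 to 0.25. ZT10 and ZT22 are the times of lowest and highest mean in these same libraries, so the counts are no separate support. Dark minus light was 0.02 ± 0.04 (interval -0.07 to 0.10, adjusted p = 0.97). ZT18 minus ZT6 was -0.05 (interval -0.19 to 0.10) and ZT14 minus ZT2 -0.09 (interval -0.23 to 0.06). Males alone gave 0.12 ± 0.05 at 1.1 h (adjusted p = 0.62) and females 0.05 ± 0.04 at 21.1 h (adjusted p = 0.805). At ZT6 the male libraries averaged 10.63 ± 0.21 and the females 10.41 ± 0.12, the widest sex gap of any time for this gene. The lowest mean of Dnajb1 was at ZT6 and that of Dnaja4 at ZT10, but the ZT6 and ZT10 means of Dnajb1 were only 0.02 apart. In males Dnajb1 was lowest at ZT10 as well (10.385, against 10.448 at ZT6). The difference between the curves of the 2 genes was not tested.

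Hspe1, the mitochondrial co-chaperonin, ranged more widely within each time than the 0.29 that separated its highest from its lowest mean. Its log2 level at ZT18 ran from 10.25 through a median of 10.83 to 11.12, with a mean of 10.70 ± 0.29. At ZT2 it ran from 10.66 through 10.99 to 11.56, with a mean of 10.99 ± 0.31. The difference in means is 1.22-fold, and 6 of 10 ZT2 libraries were above the ZT18 median while 3 were above its highest library. The means were 10.80 ± 0.29 at ZT6, 10.81 ± 0.31 at ZT14, 10.92 ± 0.27 at ZT10 and 10.96 ± 0.29 at ZT22. Every gap between neighbouring times was 0.11 or less, less than any SD between libraries. Neighbouring times were not tested against each other.

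No test of Hspe1 passed. The 24 h amplitude was 0.09 ± 0.05 with a peak at 2.6 ± 2.4 h (adjusted p = 0.817), and the test of the 6 times gave an adjusted p of 0.741. Dark minus light was -0.08 ± 0.08 (95% interval -0.23 to 0.07, adjusted p = 0.888). ZT14 minus ZT2 was -0.18 ± 0.13 (interval -0.44 to 0.08, adjusted p = 0.819), where 0.257% of genes were called, ZT18 minus ZT6 was -0.10 (interval -0.36 to 0.16) and ZT22 minus ZT10 was 0.03 (interval -0.23 to 0.30). Females alone had 0.18 ± 0.08 at 4.1 h (adjusted p = 0.604) and males 0.07 ± 0.07 at 20.8 h (adjusted p = 0.932). Fitted within single runs, the peaks scattered from 3.4 to 22.3 h. The lowest female mean was at ZT18 (10.57 ± 0.28) and the highest at ZT2 (11.02 ± 0.38), whereas male means ran from 10.72 ± 0.38 at ZT6 to 10.97 ± 0.23 at ZT22.

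A 12 h component, which would mark 2 peaks a day, was tested in all 3 genes by adding 12 h terms to the fit. The amplitudes were 0.06 for Dnajb1, 0.02 for Dnaja4 and 0.11 for Hspe1, with adjusted p-values of 0.625, 0.928 and 0.625. Of all genes 0 were called by limma and 291 (6.81%) had an unadjusted p under 0.05, none of them a member, and limma voom called none of the 3 either.

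Hspe1 and Hspd1, the lid and the barrel of 1 chaperonin whose genes sit head to head, moved in opposite directions between libraries. After group and serial-number run were removed, their residuals over the 48 libraries numbered 1 to 48 had a Pearson r of -0.73 and a Spearman rho of -0.71. The permutation p was 1e-05 for each, the smallest that 100000 resamples can give, and 8e-05 after Benjamini-Hochberg adjustment over 16 relations. Without the 2 libraries of most extreme Hspd1 r was -0.71. It was -0.67, -0.68, -0.65 and -0.84 within the 4 runs of 12, and -0.20 over the 11 libraries numbered 49 to 60 (permutation p = 0.573). Per kilobase of exon, Hspe1 was at 0.632 times the level of Hspd1 in ZT18 female replicate 4 and at 2.59 times in ZT2 female replicate 4, with a median of 1.26 and more Hspe1 than Hspd1 in 44 of 59 libraries. In the first of those libraries the log2 levels were 10.25 and 11.76, and in the second 11.56 and 11.02.

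The share of reads taken by the 6 noncoding genes moved with both. Over libraries 1 to 48 its residual correlated with Hspe1 at r = 0.60 (rho 0.54, permutation p = 5e-05, adjusted 0.000267, 0.56 without 2 libraries) and with Hspd1 at r = -0.61 (rho -0.59, permutation p = 1e-05, the smallest possible, adjusted 8e-05, -0.53 without 2). In libraries 49 to 60 r was 0.52 for Hspe1 and -0.56 for Hspd1, with permutation p-values of 0.10 and 0.0718, and 0.14 and -0.12 without 2 libraries. Within single runs of 12 it was 0.39 to 0.72 for Hspe1 and -0.70 to -0.50 for Hspd1. Such relations were not particular to these 2 genes. Over libraries 1 to 48, 3.56% of all genes had an r with the noncoding share at or above that of Hspe1. For 2.46% it was at or below that of Hspd1. With Hspe1, 9.57% of genes were correlated at least as negatively as Hspd1 was. The noncoding share was 62.0% in ZT18 female replicate 4 and 81.4% in ZT2 female replicate 4. Its part in the Hspe1 values was not tested.

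**Figure D3:**
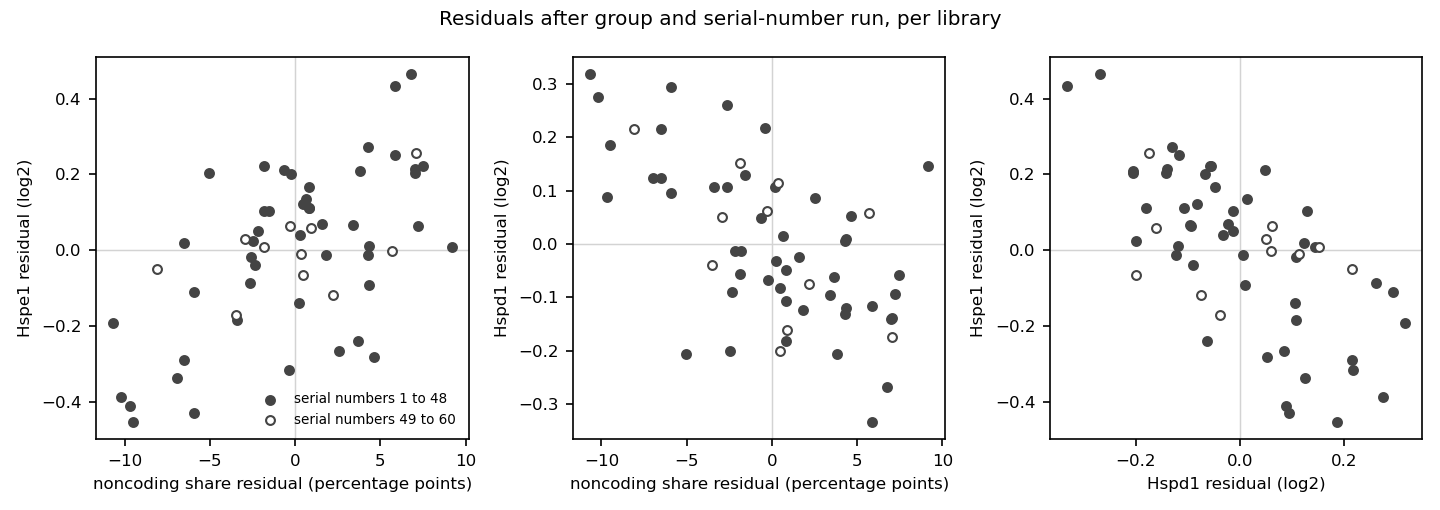
Residuals after group and serial-number run, 1 point per library, filled for numbers 1 to 48 and open for 49 to 60: Hspe1 (log2) and Hspd1 (log2) against the noncoding share (percentage points), and Hspe1 against Hspd1. Hspe1 rises and Hspd1 falls with the noncoding share among the filled points (r = 0.60 and -0.61), and both genes run against each other (r = -0.73).

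No pair among the 3 genes passed in the larger set of libraries. Over libraries 1 to 48 the residuals of Dnajb1 and Dnaja4 had r = 0.15 (permutation p = 0.295, rho 0.09 with p = 0.566), and without 2 libraries r was 0.00. Dnajb1 and Hspe1 had r = 0.28 (permutation p = 0.0578, adjusted 0.178, rho 0.31, and 0.36 without 2), and Dnaja4 and Hspe1 r = -0.24 (permutation p = 0.0959, rho -0.23, and -0.14 without 2). In the 11 libraries numbered 49 to 60, Dnajb1 and Hspe1 had r = -0.77 (permutation p = 0.0081, adjusted 0.0324, rho -0.60 with adjusted p = 0.176), which fell to -0.36 without 2 libraries and so rests on them. The noncoding share had r = 0.15 with Dnajb1 and -0.21 with Dnaja4 over libraries 1 to 48, neither of which passed.

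Among the cytosolic and mitochondrial chaperones tested, Dnajb1 alone was called for a 24 h rhythm. Most of the genes listed were absent from the table, so whether they follow the time of day was not tested. The table held 34 of the genes listed, 33 could be tested and 1 was called, against 1.9% of all genes. At an unadjusted p under 0.05 there were 6 of 33, against 11.4% of all genes. Their median amplitude was 0.06 against 0.08 for all genes, 15 of 33 had a dark-phase peak, and their median dark-light difference was 0.01 against 0.00. By role, 1 of 3 tested HSP40 genes of classes A and B was called (the third, Dnajb12, had 0.05 ± 0.09). The count was 0 of 8 tested DNAJC genes, 0 of 4 cytosolic HSP70 and HSP90 genes and 0 of 6 mitochondrial chaperones and import partners. None of 9 co-chaperones of HSP70 and HSP90, 1 heat shock factor and 3 subunits of the cytosolic chaperonin CCT passed either. Small heat shock proteins were not analysed here. Limma voom called the same 1 gene of the 33.

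Not every direct partner of these proteins was analysed here, and none of those tested passed the test of a 24 h rhythm. Hspa8, the constitutive HSP70 that receives clients from J-domain proteins, had an amplitude of 0.03 ± 0.04 and an adjusted p of 0.99. Time means of its log2 level stayed between 15.46 ± 0.18 at ZT14 and 15.59 ± 0.25 at ZT6. Hsp90aa1, the inducible cytosolic HSP90, had 0.04 ± 0.07 (adjusted p = 0.996) and Hspd1 0.03 ± 0.04 (adjusted p = 0.996). Hspa1a, a classic heat-induced HSP70, had 0.21 ± 0.16 (adjusted p = 0.909) and was measured with few reads, its log2 level ranging from 3.19 to 7.35. Hspa2, another HSP70, had 0.14 ± 0.08 (adjusted p = 0.715).

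For Hsf1, the heat shock transcription factor itself, the fitted amplitude was 0.31 ± 0.10, its peak 20.04 h, an unadjusted p of 0.0108 and an adjusted p of 0.198. Its log2 level at ZT18 ran from 7.41 through 7.78 to 8.26 and at ZT10 from 7.0 through 7.48 to 7.80. At ZT6 it ran from 3.97 through 7.38 to 7.97, where the lowest value, ZT6 male replicate 4, came from 5 reads. Without that library the amplitude was 0.22 ± 0.07 and the peak 21 h (adjusted p = 0.143). Neither value passed the threshold, and the fitted peak lay within 2 h of that of Dnajb1 in both fits.

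**Figure D4:**
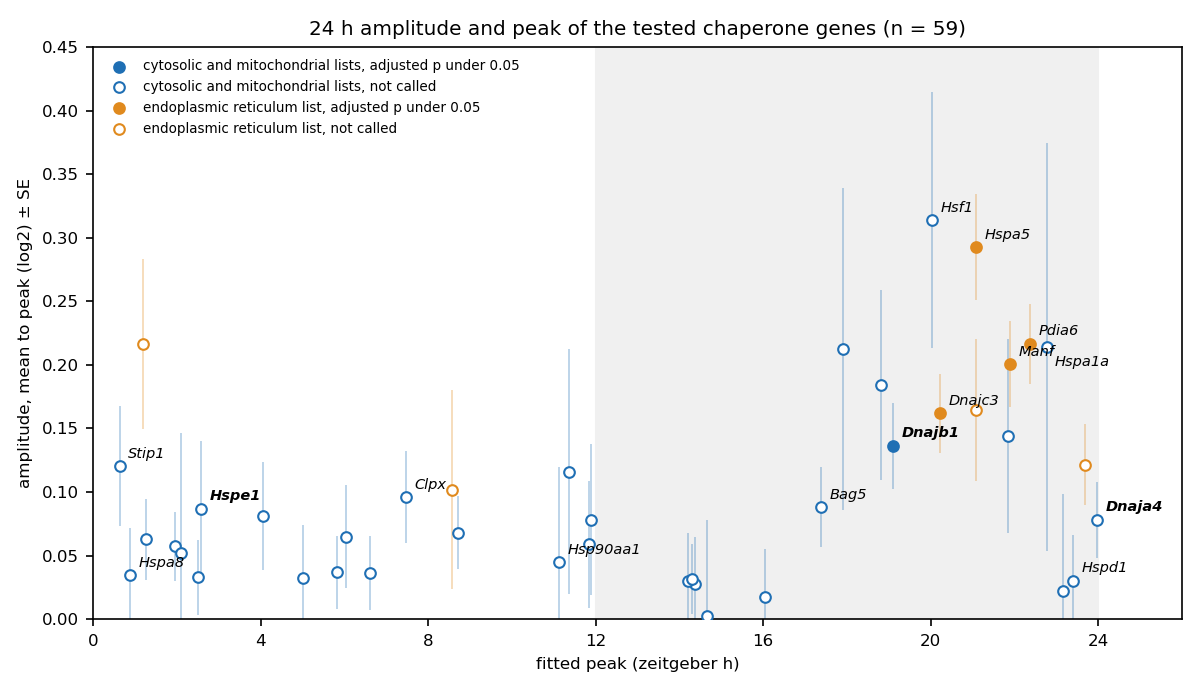
Fitted 24 h amplitude (y axis, log2, mean to peak, ± SE) against fitted peak (x axis, zeitgeber hours, ZT12 to ZT24 shaded) for each tested chaperone gene over 59 libraries, filled where the adjusted p is under 0.05. Dnajb1 (0.14, 19.1 h) is the 1 filled point among 33 cytosolic and mitochondrial genes, and 4 of 8 genes of the endoplasmic reticulum list are filled.

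Chaperones of the endoplasmic reticulum were the nearest group in function with called genes. Of 21 genes listed there 8 were tested, and 4 of these passed, against 1.9% of all genes. The 4 were Hspa5 (the lumenal HSP70, 0.29 ± 0.04, peak 21.1 h), Pdia6 (a disulfide isomerase, 0.22 ± 0.03, 22.4 h), Manf (a secreted cofactor of Hspa5, 0.20 ± 0.03, 21.9 h) and Dnajc3 (a lumenal J-domain protein, 0.16 ± 0.03, 20.2 h). The fitted peak of Dnajb1 was earlier than these 4, a difference that was not tested. Of the 8 tested genes, called or not, 6 had a fitted peak in the dark phase. The list was chosen with earlier results of these data known, so its share of called genes is a description and not a test.

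Among tested genes with a proper name, those whose 12 group effects, adjusted for run, followed each member most closely were ranked by Pearson r. This is a description, and the values are the highest of many genes over 12 groups, so their size follows in part from the choice. For Dnajb1 they were Gpr3 (0.91), Mfap3 (0.89), Pfkfb3 (0.86), Pmaip1 (0.84) and Ccdc117 (0.83), and of these Pfkfb3, a regulator of glycolysis, was itself called rhythmic (adjusted p = 0.00889, amplitude 0.21, peak 17.5 h). For Dnaja4 they were Tpi-rs11 (0.76), Agk (0.75), Tmem63c (0.75), Nqo2 (0.74) and Coq8b (0.74), of which Nqo2 was called (adjusted p = 0.00889, peak 22.98 h). For Hspe1 the values were higher, with Tmem59 (0.95), Rsl24d1 (0.95), Tmem9 (0.94), Selenok (0.94) and Tomm20 (0.94), and none of those 5 was called. Tomm20 is a receptor of the mitochondrial import pore.

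Whole tissue was measured, so fewer cells of a type and less RNA per cell cannot be told apart. Of the marker lists, GABAergic neurons had 5 tested genes, astrocytes 4, microglia 2, and oligodendrocyte precursors, striatal neurons, olfactory bulb and leptomeninges 1 each, while those of endothelial cells, choroid plexus and blood were not analysed here. None of these was called for a 24 h rhythm by limma, and 3 had an unadjusted p under 0.05. The fitted dark minus light difference was above 0 for 2 of 5 GABAergic markers, 2 of 4 of astrocytes, 1 of 2 of microglia and none of the 4 single ones. Among markers of glutamatergic neurons, which like Dnajb1 were nominally higher in the dark phase, it was 0.10 for Cux2 (adjusted p = 0.942), 0.10 for Fezf2 (adjusted p = 0.931) and 0.03 for Slc17a7 (adjusted p = 0.964), against 0.17 for Dnajb1. Summed marker levels varied more between libraries for glia than for inhibitory neurons. The GABAergic sum (Gad1, Gad2, Slc32a1, Vip and Npy) ran from 3726 to 7067 scaled reads, that of astrocytes from 6226 to 20480, and that of microglia from 529.6 to 1619. The single markers ran from 1.79 to 160.1 for oligodendrocyte precursors (C1ql1) and 70.1 to 506.2 for striatal neurons (Penk). They ran from 122.8 to 483.2 for olfactory bulb (Calb2) and 7.59 to 137.2 for leptomeninges (Lum). Reads of 1 such gene do not show that RNA of another region was present, and whether cells of the cortex gave them was not tested. The part of these cell types in the Dnajb1, Dnaja4 and Hspe1 values was not tested.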

How the data were processed

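Per the labels' protocols, the extraction kit was Qiagen RNeasy Plus Micro and the library kit Takara SMART Stranded Total RNA. Per the submitters' processing notes, FastQC, HTSeq, DESeq2 and GRCm38 were used, and the aligner, annotation and strand setting are not given in the sources used here. The deposited values are log2 of a scaled read count plus 1. In each library they are whole multiples of 1 step, which gave back whole reads (6317420 to 13325019 a library, median 9015221), and the steps followed median-of-ratios size factors (rho 0.996). The 3 genes and all gene lists were chosen with earlier results of these data known.

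Groups came from the titles, and replicates were numbered by run of 12 serial numbers. Number 54 is absent. Genes with at least 10 reads in at least 4 libraries were tested with limma 3.58.1 in R 4.3.3 on the deposited log2 values, with an intensity trend and robust fit, and adjusted by Benjamini-Hochberg over all 4273 genes at 0.05. The 24 h rhythm is a joint test of cosine and sine terms with sex as covariate, and the other contrasts use group or time means. The models were tested on simulated data. Positions and exon overlaps are from GENCODE M21, and start windows from RefSeq (GRCm38.p6), where all 3 genes matched. Named genes are the 3 members, called genes of the chaperone lists, their direct partners and the 5 genes with a proper name most alike to each member. Replicate pairs differed by a chi-square of at least 4.27 per degree of freedom over 116 pairs, so none was counted as a copy. Alternatives covered scaling, model, pseudocount, filter, serial-number block, covariates and left-out libraries. Leaving out numbers 49 to 60 with the block and averaging by animal number were chosen after seeing the data. Some marker genes are not reported here.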

Additional observations from a re-analysis of the deposited data

Results flagged for a closer look

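A library was picked out where it lay far from the others of its group of 4 or 5, by Dixon's 95% criterion on log2 levels. Over the 3 genes, Hspd1, Hspa8, Hsf1 and Hspa1a, 5 of 84 groups had such a library, and chance gives about 1 in 20. Dnajb1 was at 9.90 in ZT6 female replicate 5, where the other females of that time lay between 10.32 and 10.49. Without that library the Dnajb1 rhythm had an amplitude of 0.12 and an adjusted p of 0.0934. Hspd1 was at 11.76 in ZT18 female replicate 4 (others 11.35 to 11.43), the library with the lowest Hspe1 of all. Hspa8 was at 15.65 in ZT18 male replicate 1 (others 15.41 to 15.48). Hsf1 was at 3.97 in ZT6 male replicate 4 (others 6.98 to 7.96) and Hspa1a at 3.46 in ZT10 male replicate 3 (others 6.26 to 7.09), from 5 and 3 reads.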

How the results depend on the processing

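Of the Dnajb1, Dnaja4 and Hspe1 tests, voom, no trend or robust fit, either pseudocount (0.5 or 4), either filter (none, or a mean of 50 reads) and totals without the noncoding genes changed no call and no direction. The Dnajb1 rhythm (0.14) fell below the threshold with library totals (0.16), without numbers 49 to 60 (0.13) and with animal numbers averaged (0.13), and the chaperones called outside the endoplasmic reticulum went from 1 to 0 in each. Without numbers 49 to 60 but with the replicate block, Dnajb1 was called (0.13, adjusted p = 0.0411) and was again the 1 chaperone called outside the endoplasmic reticulum. The count of all genes called went from 81 to 3 with library totals, 52 without numbers 49 to 60 and 359 with 2 principal components. The components were taken from deviations from group means, so they shrink the spread and leave the estimates as they were. With them 8.4% of all genes were called, and 3 of 33 chaperones (Dnajb1, Hsf1 and Stip1). They also brought past the threshold the Dnajb1 rhythm in females (0.16), dark minus light (0.17), the 6 times (0.27) and ZT18 minus ZT6 (0.27), and for Hspe1 the 12 h terms (0.11), females (0.18), the sex difference in rhythm (0.22), the 6 times (0.29) and ZT14 minus ZT2 (-0.18). With the noncoding share as covariate Dnajb1 dark minus light passed (0.17).

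Replicate numbers were not treated as pairing the libraries in the main fits, which therefore leave differences between runs in the spread. Of the same-numbered pairs, 148 of 319 had r over 0.1 (mean 0.11), against 310 of 1276 pairs of other numbers (mean -0.03). In numbers 49 to 60 all 55 pairs did (mean 0.41, lowest 0.18). With the serial-number run as a replicate block, Dnajb1 dark minus light (0.18), the 6 times (0.28) and ZT18 minus ZT6 (0.27) passed, the Dnajb1 rhythm was 0.14 (adjusted p = 0.00314). Reversed directions were the Hspe1 rhythm in males with library totals (0.046, peak 6.4 h) and Hspe1 ZT22 minus ZT10 with animal numbers averaged (-0.027). Leaving out 1 library gave ranges of 0.12 to 0.15 for the Dnajb1 rhythm, 0 to 1 for chaperones called, 0.15 to 0.19 for Dnajb1 dark minus light, 0.24 to 0.33 for its 6 times, 0.22 to 0.33 for its ZT18 minus ZT6 and -0.041 to 0.096 for Hspe1 ZT22 minus ZT10. The causes were not tested.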
